A study of Rattus norvegicus with 16 samples.

Results

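Myelin basic protein (Mbp), 2′,3′-cyclic nucleotide 3′ phosphodiesterase (Cnp), the transcription factor Sox10 and the calcium-binding protein S100b are genes of Schwann cells and of the myelin they make. All probe sets that the platform annotation assigns to these 4 genes were followed, which gave 5 of the 1263 probe sets tested and 4 of the 720 named genes on the array. Mbp (K00512_at), Cnp (L16532_at) and Sox10 (AJ001029_at) had 1 probe set each. S100b had 2, the bright S53527mRNA_s_at, which leads here, and the dim rc_AI146214_at. RNA came from newborn rat cochleae, and each of the 16 arrays held a pool of 12 cochleae, which for native tissue means 6 animals. The 3 regions were the organ of Corti, the modiolus and the stria vascularis, and each was measured native, that is without culture, after 24 h as an organotypic explant in normoxia, or after a culture of equal length that included 5 h of hypoxia. Hypoxia started 3 h into culture and was followed by 16 h of recovery. Each of the 9 groups had 2 arrays except native modiolus and native stria vascularis, which had 1 each. No genotype, strain or drug set the groups apart, and each pool mixes all the cell types of its region.

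Schwann cells wrap the peripheral axons of the spiral ganglion, whose cell bodies lie in the modiolus. Mbp encodes a cytoplasmic protein that compacts the myelin membrane, and Cnp encodes an enzyme of the non-compact, cytoplasm-filled parts of the sheath. Sox10 is a transcription factor of the neural crest that Schwann cells need from their specification to myelination, and S100b is a calcium-binding protein used as a general marker of Schwann cells. Neither of the last genes is confined to them: in mouse, Sox10 is also made by the otic epithelium and by the crest-derived intermediate cells of the stria vascularis, and S100b occurs in other glia and in supporting cells. Around birth in rodents, myelination of the spiral ganglion is beginning.

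Values are signals in the deposited intensity units, and differences are on the scale log2(signal + 16) with the standard error (SE) of a limma model over all 16 arrays. A difference passed when its Benjamini-Hochberg adjusted p over 1263 probe sets was below 0.05. Background was the 95th percentile of the 23 controls of foreign sequence on the same array and lay between 237 and 772, and the median signal of an array lay between 548 and 930. Sox10, Cnp and the leading S100b probe set were above background on 16 of 16 arrays, Mbp on 12, and the other S100b probe set on 2. Arrays scanned in the same calendar month were taken as a scan session. Session 1 held all native arrays, session 2 the cultures of repeat 1 and session 3 those of repeat 2. Culture and scan session therefore cannot be told apart. The labels of the native modiolus and native stria arrays call the tissue fresh in one field, while another gives a collection after 24 h of cultivation. On those 2 arrays the chemokine gene Ccl2 was at 540 to 983 and the heme oxygenase gene Hmox1 at 4088 to 6957, against at least 9643 and 24810 on every cultured array and at most 476 and 2666 on the native organ of Corti arrays. As each is the only array of its group, no comparison with these groups has a value without it, and the culture difference in the organ of Corti uses neither.

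Of 12 measured neuron markers, the summed signal was 111814 in native modiolus, 120343 to 128719 in native organ of Corti and 18029 in native stria vascularis, so that the preparation labelled organ of Corti held neuronal RNA at least as high as the modiolus. The 5 measured genes of stria vascularis and melanocytes summed to 80324 in native stria and to at most 9929 in the native and cultured groups of the other regions. Of the list for hair cells and supporting cells only Slc1a3, Glul and Kcnj10 were measured, all genes of supporting cells or glia, so the hair cells of the organ of Corti could not be checked.

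Promoter windows are shown because the genes fell in culture in the same direction and Sox10, a member, binds DNA through an HMG box. RefSeq windows of 300 bases (250 before and 50 after an annotated start, build GRCr8) matched 3 of the 4 genes, with 2 starts for Mbp. Capitals mark matches on either strand to the SOX consensus, spelled NNCAANG with A or T at each N. The windows are those of Cnp (chr10:86011254-86011553, plus strand), of the downstream start of Mbp (chr18:78209995-78210294, plus strand) and of S100b (chr20:12381032-12381331, minus strand), each read 5′ to 3′ along the gene.
Cnp: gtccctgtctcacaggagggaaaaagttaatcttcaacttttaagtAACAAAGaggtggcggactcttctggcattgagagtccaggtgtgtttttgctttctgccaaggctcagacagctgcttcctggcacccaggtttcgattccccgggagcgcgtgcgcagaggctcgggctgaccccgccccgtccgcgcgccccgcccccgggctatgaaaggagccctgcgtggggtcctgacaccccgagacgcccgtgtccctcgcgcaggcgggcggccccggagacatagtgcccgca
Mbp: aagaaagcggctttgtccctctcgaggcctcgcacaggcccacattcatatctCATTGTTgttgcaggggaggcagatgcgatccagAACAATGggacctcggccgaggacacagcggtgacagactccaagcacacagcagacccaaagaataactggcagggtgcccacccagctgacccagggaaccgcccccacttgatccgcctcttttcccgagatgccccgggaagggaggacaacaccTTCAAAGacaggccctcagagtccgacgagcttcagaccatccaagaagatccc
S100b: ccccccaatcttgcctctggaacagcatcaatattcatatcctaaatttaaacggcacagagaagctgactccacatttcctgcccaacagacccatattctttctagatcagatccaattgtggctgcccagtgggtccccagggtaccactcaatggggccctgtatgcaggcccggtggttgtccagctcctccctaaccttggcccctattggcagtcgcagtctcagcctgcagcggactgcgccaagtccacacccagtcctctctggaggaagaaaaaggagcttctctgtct
The Cnp window held 1 match, 204 bases before the start, and this Mbp window held 3, none overlapping. The S100b window and the window of the upstream Mbp start (chr18:78130402-78130701) held 0. Of 33469 promoter windows of the same length in the rat genome, 25.5% held at least 1 match, so that 2 of 4 windows is a description of these letters and not evidence of binding.

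Among the leading probe sets, Mbp had the widest spread of group means over the regions on the log2 scale. Its signal was 29677 on the native modiolus array and 4212.5 and 9322 on the native organ of Corti arrays. In normoxic culture it was 3934 and 3366 in the modiolus and 1722 and 1317 in the organ of Corti, and in hypoxic culture 3595 and 4611 in the modiolus and 1725 and 1666 in the organ of Corti. In the stria vascularis it was 369.5 in native tissue, 364.5 and 303 in normoxia and 250 and 138 in hypoxia, where only the array at 364.5 stood above its background of 357. The order of the group means was therefore native modiolus, native organ of Corti, both cultured modiolus groups, both cultured organ of Corti groups and then the stria vascularis. Within that order the arrays of native organ of Corti and hypoxic modiolus overlapped, and the normoxic and hypoxic groups of modiolus and of organ of Corti lay closer than the residual SD of Mbp, which was 0.41 on the log2 scale.

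Cnp was also highest in the modiolus, and it was above background in every region. The native modiolus array gave 26938, the native organ of Corti arrays gave 7754 and 9054, and the native stria array gave 7757. Normoxic culture gave 9877 and 12414 in the modiolus, 2907 and 3437 in the organ of Corti and 3249 and 4261 in the stria, and hypoxic culture gave 9401 and 10122, 2415 and 3311, and 3006 and 2914 in the same regions. All 4 cultured modiolus arrays were higher than the native arrays of both other regions. The cultured organ of Corti and stria groups overlapped one another.

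Sox10 separated native from cultured tissue more than it separated regions. Its signal was 11601 and 8925 in native organ of Corti, 8829 in native modiolus and 5024 in native stria vascularis. Normoxic organ of Corti gave 2936 and 4097, normoxic modiolus 2845 and 4560, and normoxic stria 1514 and 2559. Hypoxic arrays of these regions, in the same order, gave 2806 and 3990, 4389 and 3147, and 1678 and 2408. Every native array was above every cultured array. The 4 cultured groups of organ of Corti and modiolus overlapped, with neighbouring means at most 0.05 apart on the log2 scale, against a residual SD of 0.39.

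S100b had a different order of regions. Its leading probe set was at 69486 in native stria vascularis, 50647 and 55291 in native organ of Corti and 30433 in native modiolus, so that the stria, where Mbp was at background, gave the highest signal. Normoxic organ of Corti gave 10395 and 10783, normoxic modiolus 8671 and 7328, and normoxic stria 7256 and 8107. Hypoxic arrays of these regions, in the same order, gave 12118 and 10679, 8988 and 8696, and 8358 and 6433. The native arrays spanned 30433 to 69486 and the cultured arrays 6433 to 12118, so that native and cultured arrays did not overlap in any region. How many of all probe sets separate native from cultured arrays in this way, as Sox10 also did, was not counted. The other S100b probe set ranged from 114 to 1229 and exceeded background on 1 native organ of Corti array (1229, against 338 on the other) and on the native modiolus array (801). Over the 9 group means the 2 S100b probe sets correlated at r = 0.64, and the dim one gives no usable comparison between regions.

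**Figure D1:**
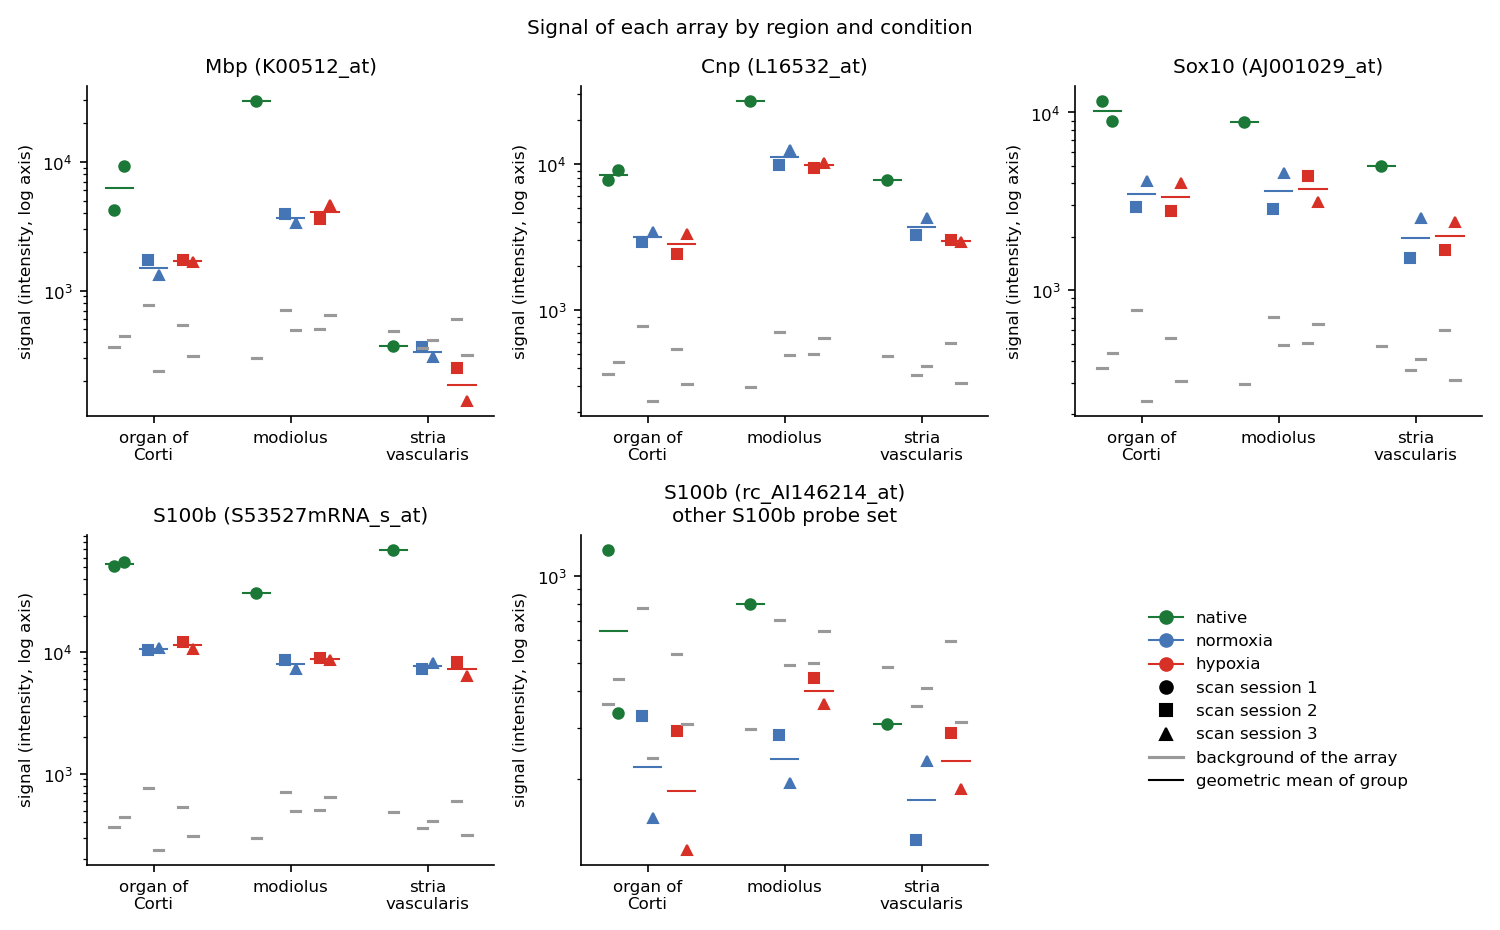
Signal of the 5 probe sets on each of the 16 arrays (log axis, intensity units), by region and condition; marker shape gives the scan session, short grey lines the background of each array and long lines the geometric mean of a group. Native arrays of Cnp, Sox10 and the leading S100b probe set lie above the cultured arrays of their region, and Mbp in the stria vascularis lies at background.

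In native tissue the myelin genes Mbp and Cnp were higher in the modiolus than elsewhere, and S100b was lower there. Mbp was higher in native modiolus than in native organ of Corti by 2.24 ± 0.46 (SE, 1 array against 2, adjusted p = 0.0137), or 4.72-fold, and Cnp by 1.68 ± 0.26 (adjusted p = 0.00326). In the same comparison S100b was lower by a log2 difference of -0.80 ± 0.21 (adjusted p = 0.0467), and Sox10 differed by -0.20 ± 0.41 and did not pass (adjusted p = 0.92). Among all probe sets 2.06% passed as higher and 3.4% as lower, beside 2 and 1 of the 5 member probe sets, and the median over all was 0.14. The Mbp call rested on the first native organ of Corti array, without which the difference was 1.67 (adjusted p = 0.0911). That of S100b was lost without any 1 of 10 arrays, with differences of -0.86 to -0.73 and adjusted p = 0.0537 to 0.217, and with quantile normalization (-0.77, adjusted p = 0.0672).

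Against native stria vascularis the contrast was wider for Mbp. Native modiolus was higher by 59.3-fold and native organ of Corti by 12.5-fold when the stria array was set to its own background level (adjusted p = 2.05e-05 and 0.000102 for the fitted differences of 6.27 and 4.03). With the maximum of the foreign controls as that level the folds were 57.0 and 12.1. Cnp was higher in native modiolus than in native stria by 1.79 ± 0.30 (1 array each, adjusted p = 0.00223), whereas native organ of Corti and native stria differed by 0.11 ± 0.26 (adjusted p = 0.982). S100b was lower in native modiolus than in native stria by a log2 difference of -1.19 ± 0.24 (adjusted p = 0.00767), a call lost with no variance trend (adjusted p = 0.0624). For native modiolus against stria 4.75% of all probe sets passed as higher and 4.43% as lower, with 2 and 1 of the members, and for native organ of Corti against stria 4.67% and 2.45%, with 1 and 0. Sox10 did not pass in either, with 0.81 ± 0.48 and 1.02 ± 0.41 (adjusted p = 0.441 and 0.218). Centring each array on its median moved the calls of these comparisons to 44 higher and 84 lower from 60 and 56, and to 41 and 51 from 59 and 31, with quantile normalization giving 48 and 68 in the first, and no member call changed with either.

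After 24 h of normoxic culture all 4 genes were lower than in native tissue in the mean of the regions, where S100b fell the most. That order depends on the stria, where the Mbp value of -0.15 lies between signals at or near background. Mbp and S100b gave -2.05 and -2.32 in organ of Corti, and -3.02 and -1.93 in modiolus. As the mean of the 3 regions the log2 difference was -2.48 ± 0.11 for S100b, a 5.56-fold fall, -1.74 ± 0.25 for Mbp, -1.39 ± 0.22 for Sox10 and -1.25 ± 0.14 for Cnp (4 native against 6 normoxic arrays, adjusted p = 4.45e-09, 0.000154, 0.000384 and 2.24e-05). Thus all 4 leading probe sets passed as lower, beside 18.7% of all probe sets, and 0 as higher, beside 13.3%. The other S100b probe set had a fitted value of -1.33 ± 0.47 (adjusted p = 0.048), but it was above background on 0 cultured arrays, so that it gives no measured difference and is not counted. Its call was lost without any 1 of 10 arrays, where the value was -1.47 to -1.03 and adjusted p = 0.0501 to 0.12. The median over all probe sets was -0.14, and 0.475% of them lay lower than the leading S100b probe set, 2.22% lower than Mbp, 5.3% lower than Sox10 and 7.52% lower than Cnp. In bulk tissue, fewer cells of a type and less RNA per cell cannot be told apart.

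Culture minus native was negative for every member probe set in each region, though not every value passed. In the organ of Corti, the region with 2 native arrays, S100b fell by 2.32 on the log2 scale (SE 0.17, 4.99-fold, adjusted p = 8.79e-07), Mbp by 2.05 (SE 0.37, 4.13-fold, adjusted p = 0.00209), Sox10 by 1.55 (SE 0.34, adjusted p = 0.00671) and Cnp by 1.40 (SE 0.21, adjusted p = 0.000577). These were 4 of the 5 member probe sets, beside 8.79% lower and 8.47% higher of all. The Sox10 call was lost without the first native array (-1.36, adjusted p = 0.0703) or without the first normoxic array (-1.31, adjusted p = 0.0676). The other S100b probe set differed by -1.49 ± 0.71 and did not pass (adjusted p = 0.19).

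In the modiolus Mbp gave the widest culture difference of the members. It fell by 3.02 (SE 0.46, 8.12-fold, adjusted p = 0.000488), S100b by 1.93 (SE 0.21, 3.81-fold), Cnp by 1.28 (SE 0.26, 2.43-fold) and Sox10 by 1.29 (SE 0.41, adjusted p = 0.0436). Of all probe sets 1.58% lay lower than Mbp, 6.73% lower than the leading S100b probe set, and 14.2% and 14.3% lower than Sox10 and Cnp. The 4 members passing as lower stood beside 10.8% of all probe sets as lower and 10.1% as higher. Sox10 did not pass with median centring (-1.25, adjusted p = 0.0906) or without the first normoxic modiolus array (-0.95, adjusted p = 0.189), nor without any 1 of the 4 native or normoxic organ of Corti arrays, which leave its difference as it was (adjusted p = 0.0503 to 0.0554).

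In the stria vascularis the S100b signal dropped by 3.18 on the log2 scale (SE 0.21, 9.04-fold, adjusted p = 5.19e-07), and 0.158% of all probe sets lay lower. Cnp fell by 1.06 (SE 0.26, adjusted p = 0.0164) and Sox10 by 1.34 (SE 0.41, adjusted p = 0.0496). Mbp, which was at background in native stria and on 1 of 2 normoxic arrays, differed by -0.15 ± 0.46 (adjusted p = 0.898), a value that carries no fold. These 3 members passing as lower stood beside 6.33% of all probe sets as lower and 7.36% as higher. The Sox10 call was lost without any 1 of 12 arrays (adjusted p = 0.0505 to 0.256) and was -0.97 without the first normoxic stria array. Without that array Cnp gave -0.86 (adjusted p = 0.103).

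Whether the culture difference varied between regions was tested as a moderated F test, and none of the 5 member probe sets passed, beside 3.33% of all, with 2 at an unadjusted p below 0.05. For Mbp the test is void as a comparison of responses, because its stria value of -0.15 lies between signals at background, which leave no room for a fall (differences of -2.05 in organ of Corti and -3.02 in modiolus, F = 10.3, adjusted p = 0.0605, with passes at F = 16.5 and 13.7, adjusted p = 0.0265 and 0.0449, without the first or the second native organ of Corti array). The leading S100b probe set gave -2.32, -1.93 and -3.18 in organ of Corti, modiolus and stria (F = 9.37, adjusted p = 0.0737). S100b passed with scan session as a term (F = 12.84, adjusted p = 0.026) or as a random block (F = 10.93, adjusted p = 0.0394), and with median centring (F = 12.3, adjusted p = 0.0448). Cnp (F = 0.525, adjusted p = 0.94) and Sox10 (F = 0.139, adjusted p = 0.985) had differences that were close in the 3 regions, and their interaction was not detectable with these arrays.

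**Figure D2:**
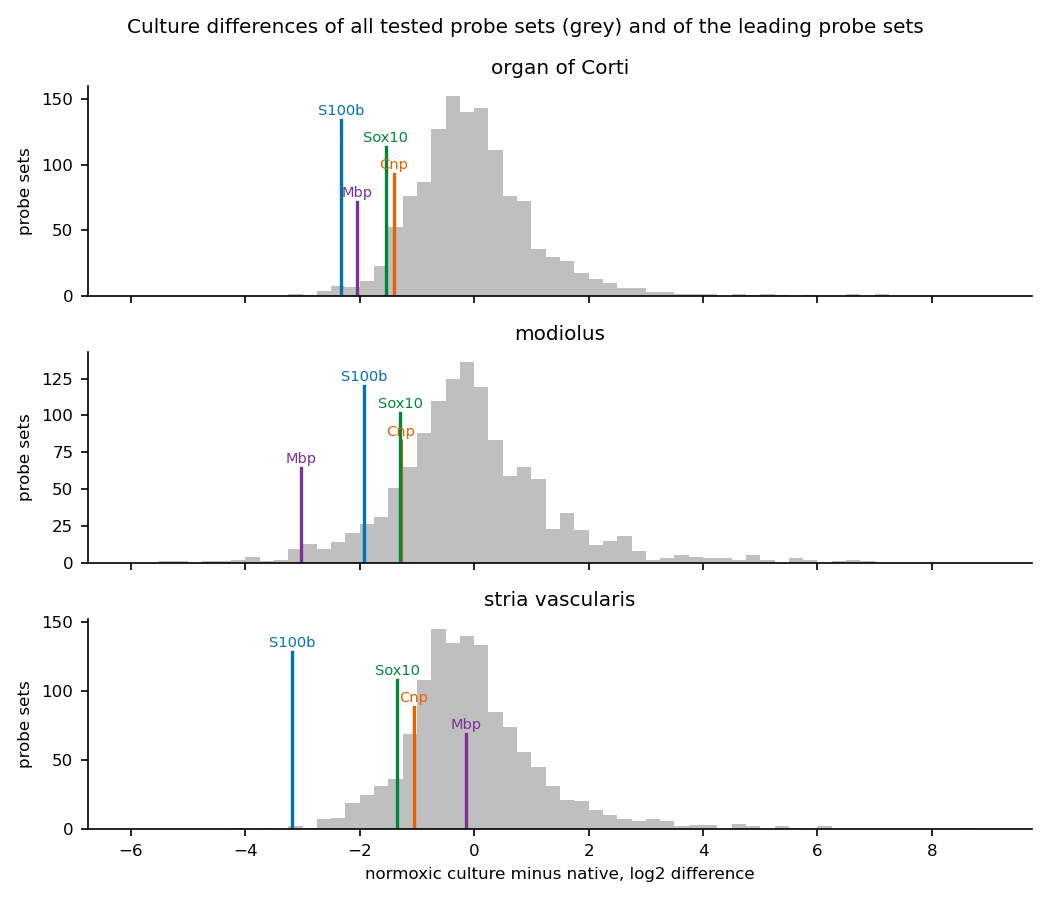
Log2 difference of normoxic culture minus native tissue for all 1263 tested probe sets (grey histogram, number of probe sets) in each region, with the leading probe sets as coloured lines. S100b lies in the lower tail in every region, and Mbp lies furthest out in the modiolus at -3.02 and near the centre in the stria vascularis at -0.15.

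Other measures moved with culture, and the counts here in the mean of the regions stand beside the 13.3% higher and 18.7% lower of all probe sets. RNA integrity, read from the 3′/5′ ratio of the GAPDH controls, gave 3.39 to 4.76 on native arrays and 1.07 to 1.39 on cultured arrays, while that of beta-actin was 1.67 to 2.41 and 1.73 to 2.78. Of 12 neuron markers 8 passed as lower and 0 as higher in the mean of the regions, led by the neurofilament Nefh (-1.94 ± 0.18), and in the modiolus their summed signal went from 111814 to between 23677 and 30741, with Nefh, Sncg, Sncb and Ntrk2 not above background. By region 5 of the 12 were lower in organ of Corti and 9 in modiolus, beside 8.79% and 10.8% of all probe sets, with 0 higher. In the stria 0 were lower and 2 higher, Eno2 (1.10 ± 0.20) and Sncg (fitted 3.13 ± 0.57), beside 7.36% of all as higher. Sncg and Nefh were not above background in native stria, so that the Sncg value carries no fold. The Nefh mean takes in that region. The 5 genes of stria vascularis and melanocytes summed to 80324 in native stria and to 19590 to 21271 in normoxic stria, where the potassium channel gene Kcnq1 was not above background, and 1 of 5 (the sodium pump subunit Atp1b2) passed as lower in the mean of the regions. Of 4 macrophage and leukocyte genes the cytokine genes Ccl3 and Il1b passed as higher (fitted 5.82 ± 0.23 and 3.51 ± 0.28). Ccl3 was not above background in any native group, nor Il1b in native organ of Corti and native stria, so that these values carry no fold. Itgam, which marks macrophages, was not above background in any group. Of the 3 genes for hair cells and supporting cells Glul rose and Slc1a3 fell, with a summed signal of 26826 to 39288 in native and 47861 to 77989 in normoxic tissue, and of 2 fibroblast and vessel genes Pdgfrb rose and Vim fell, with sums of 77854 to 156352 and 41858 to 115979. Pdgfrb was not above background in native stria, so that its averaged value carries no fold. By region 0 of these 2 genes passed in organ of Corti and in modiolus, and 1 passed as higher in the stria. The part of these measures in the fall of the members was not tested.

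The wider list of myelin sheath genes had only 3 of 17 members on the array besides those followed. Of these, Mag, an adhesion protein of the inner myelin face, fell by 0.54 (SE 0.17, adjusted p = 0.0237) in the mean of the regions. In no single region did it pass, with mean signals of 3253 native and 2269 normoxic in organ of Corti, 4137 and 2414 in modiolus and 2730 and 2203 in stria (adjusted p = 0.196, 0.0999 and 0.601). Mog, known from central myelin, gave a fitted -1.01 ± 0.39 and the axon-glial adhesion gene Cntn2 gave -0.59 ± 0.26, and neither passed (adjusted p = 0.0682 and 0.0976). Mog was not above background in normoxic modiolus or in native and normoxic stria, so that its averaged value carries no fold. The list median was -0.59 against -0.19 over the 720 genes. Within the modiolus, Mog passed as lower, chosen for mention after its value was seen, at 1299 in native tissue and not above background in normoxia. Of 18 Schwann cell regulators and axon-glia signals, only Ngfr, the low-affinity neurotrophin receptor, Foxd3, a neural crest factor, and the growth factor receptor Pdgfra were measured. None of these 3 passed for culture in the limma fit in any region or in their mean, with -0.13 ± 0.20 for Ngfr, -0.24 ± 0.17 for Foxd3 and 0.49 ± 0.20 for Pdgfra in the mean (adjusted p = 0.684, 0.333 and 0.0845). At an unadjusted p below 0.05 stood Pdgfra, in the mean and in the stria, and neither of the others. Suffixes such as _s_at and _f_at mark probe sets that can bind several similar transcripts, and those of Foxd3, Ngfr, Mag, Mog, Serpine2, Jun and the leading S100b probe set carry one.

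Genes of immature, injured or reactive glia moved both ways. Of 12 measured of 18 listed, 2 passed as higher and 2 as lower in the mean of the regions, which is near the 13.3% and 18.7% of all probe sets, with a median of 0.02 against -0.19 for all genes. The protease inhibitor gene Serpine2 rose by 2.69 ± 0.15 and the transcription factor gene Jun, which in mouse drives the repair state of injured Schwann cells, rose by 2.59 ± 0.16. The adhesion gene L1cam fell by 1.11 (SE 0.25) and the intermediate filament gene Vim fell by 0.46 (SE 0.16). In the modiolus alone 4 passed as higher and 2 as lower, beside 10.1% and 10.8% of all probe sets, and the list median was -0.29 against -0.17 for all genes. There the adhesion genes L1cam and Ncam1 fell by 1.55 (SE 0.47) and 1.44 (SE 0.41), while Serpine2 went from 2360 to 66212 (4.78 ± 0.27), Jun from 610 to 12105 (4.27 ± 0.30), the filament gene Nes from 6706 to 16537 (1.30 ± 0.21) and the growth cone gene Gap43 from 12858 to 25169 (0.97 ± 0.32). The culture difference of these 4 genes varied between the regions (F test, adjusted p = 0.000922 for Serpine2 and Nes, 0.00585 for Jun and 0.0162 for Gap43), and Nes fell by 0.93 in organ of Corti and by 1.12 in stria. Many of these genes are made by other cells too, so that the list does not mark Schwann cells alone.

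Among the cultured explants the level of Mbp and Cnp was higher in the modiolus than in the other regions. Over normoxia and hypoxia, Cnp was higher in cultured modiolus than in cultured organ of Corti by 1.79 ± 0.15 (4 arrays each, adjusted p = 2.56e-06) and than in cultured stria by 1.64 ± 0.15 (adjusted p = 4.12e-06). Mbp was higher in cultured modiolus than in cultured organ of Corti by 1.26 ± 0.26 (adjusted p = 0.00403). Against cultured stria Mbp was higher in modiolus and in organ of Corti, with fitted differences of 3.86 and 2.60 (adjusted p = 3.13e-07 and 2.67e-05). With hypoxic stria raised to its background these were 9.77-fold and 4.08-fold. Normoxic stria, with 1 of 2 arrays above background, kept its measured signals, so that these folds are not strict lower bounds. Within scan sessions 2 and 3, the Cnp difference of modiolus minus organ of Corti was 1.86 and 1.73 and that of Mbp 1.12 and 1.40. Cnp did not differ detectably between cultured organ of Corti and stria (-0.15 ± 0.15, 95% interval -0.48 to 0.18).

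Differences of S100b and Sox10 between the cultured regions were smaller. S100b was lower in cultured modiolus than in organ of Corti by a log2 difference of -0.39 ± 0.12 (adjusted p = 0.0347, -0.35 and -0.43 within sessions 2 and 3), a call lost without any 1 of 7 arrays, where it was -0.43 to -0.33 and adjusted p = 0.0522 to 0.106. It was higher in cultured organ of Corti than in stria by 0.55 ± 0.12 (adjusted p = 0.00694, 0.53 and 0.57 within sessions), but the median of all probe sets was also higher there, by 0.14, and median centring left 0.23 (adjusted p = 0.226). Sox10 was higher in cultured modiolus than in stria by 0.87 ± 0.24 (adjusted p = 0.0187, 1.14 and 0.61 within sessions), where the median of all probe sets was 0.41, and with median centring 0.44 remained (adjusted p = 0.32). It was higher in cultured organ of Corti than in stria by 0.77 ± 0.24 (adjusted p = 0.046, 0.84 and 0.70 within sessions), and 0.45 with centring (adjusted p = 0.333). These calls of Sox10 were lost without any 1 of 4 arrays (0.69 to 0.75, adjusted p = 0.0647 to 0.0746) and without any 1 of 7 arrays (0.58 to 0.89, adjusted p = 0.0536 to 0.185). Modiolus and organ of Corti did not differ detectably in Sox10 (0.10 ± 0.24, 95% interval -0.42 to 0.62), nor modiolus and stria in S100b (0.16 ± 0.12, interval -0.10 to 0.43).

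Of the 5 member probe sets, 2 passed as higher and 1 as lower in cultured modiolus against organ of Corti, beside 13.2% and 11.9% of all probe sets. Against cultured stria 3 passed as higher in modiolus, beside 16.8% higher and 8.39% lower, and 3 as higher in organ of Corti, beside 10.5% and 5.23%. Median centring turned the calls over all probe sets from 212 higher and 106 lower to 68 and 178 in modiolus against stria, and from 133 and 66 to 80 and 118 in organ of Corti against stria, while quantile normalization gave 118 and 134 in the first. The Mbp and Cnp calls between cultured regions kept their direction and side of the threshold with both. Of the 3 measured regulators, 1 passed as higher in cultured modiolus than in organ of Corti, Foxd3 (1.30 ± 0.18), and 2 as higher than in stria, Foxd3 (2.29 ± 0.18) and Ngfr (0.70 ± 0.21), beside 13.2% and 16.8% higher of all probe sets. Of the 12 genes of immature, injured or reactive glia, 5 passed as higher and 1 as lower, Ncam1 (-0.71 ± 0.24), in cultured modiolus against organ of Corti, and 6 as higher and 0 as lower against stria. The smallest p values among them were those of Gap43 (3.33 ± 0.18 against organ of Corti and 5.28 ± 0.18 against stria), Nes (2.52 ± 0.12 and 2.86 ± 0.12) and Jun (1.41 ± 0.17 and 2.00 ± 0.17). Of the 3 other myelin sheath genes, Cntn2 passed as higher in cultured modiolus than in organ of Corti (0.95 ± 0.27), and none passed against stria. Of the neuron markers, by contrast, 9 of 12 were lower in cultured modiolus than in cultured organ of Corti and 0 higher. Against cultured stria 5 were higher and 2 lower in cultured modiolus. Not above background were Nefh, Sncg, Sncb and Ntrk2 in normoxic modiolus and Sncg and Ntrk3 in hypoxic modiolus. In the stria these were Nefl, Nefm and Ntrk3 in normoxia and Nefm and Ntrk3 in hypoxia.

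**Figure D3:**
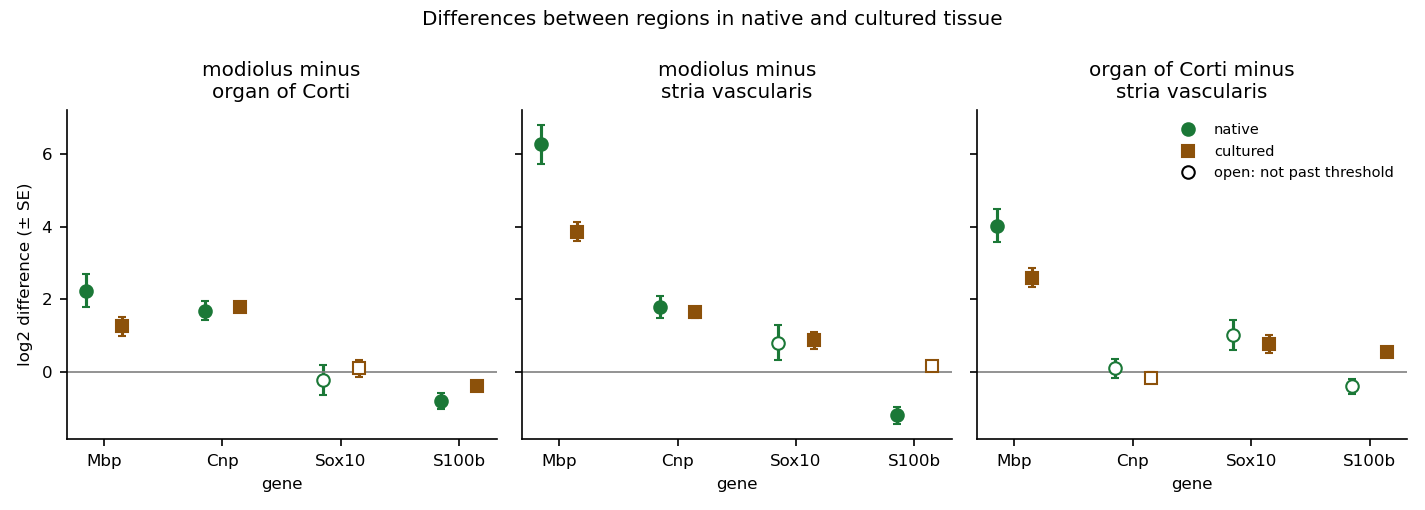
Log2 difference between regions (± SE) for the leading probe sets in native tissue (circles) and in cultured tissue (squares, normoxia and hypoxia together); open symbols did not pass. Mbp and Cnp are higher in the modiolus in both states, S100b is lower in native modiolus, and the Mbp values against the stria vascularis (6.27 and 3.86 for the modiolus) are fitted values with the stria at background.

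Hypoxia left no member past the threshold in any region or in the mean of the regions. As the mean of the 3 regions, hypoxia minus normoxia was -0.22 ± 0.12 for Cnp (6 arrays each, 95% interval -0.49 to 0.04, adjusted p = 0.84), -0.15 ± 0.22 for Mbp (-0.62 to 0.32, adjusted p = 0.982), 0.06 ± 0.10 for the leading S100b probe set (-0.15 to 0.28, adjusted p = 0.984) and 0.01 ± 0.19 for Sox10 (-0.42 to 0.43, adjusted p = 0.997). Each interval is narrower than the culture difference of its gene, so that a response as large as that to culture would lie outside it. For Mbp both means take in the stria, where its signals were at or near background (hypoxia difference -0.78), so that no response there is bounded. In the regions where Mbp was measured the hypoxia difference was 0.17 ± 0.37 (organ of Corti) and 0.16 ± 0.37 (modiolus). In the limma fit 0 of the 5 member probe sets passed, beside 0.158% of all probe sets higher and 0% lower, with 94 of 1263 at an unadjusted p below 0.05, none of them a member. Cnp was lower in hypoxia in each region, at -0.16 ± 0.21 in organ of Corti, -0.18 ± 0.21 in modiolus and -0.33 ± 0.21 in stria, without passing (adjusted p = 0.998, 0.864 and 0.893).

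By region, 0 of the 5 member probe sets passed for hypoxia in the organ of Corti, beside 0% higher and 0% lower of all probe sets, 0 in the modiolus, beside 0.0792% and 0%, and 0 in the stria, beside 0% and 0.238%. At an unadjusted p below 0.05 these comparisons held 57, 101 and 63 probe sets, none of them a member. The widest member value was that of Mbp in the stria, -0.78 ± 0.37 (adjusted p = 0.872), between signals at background. Sox10 in the modiolus shows how far the repeats differed: its hypoxia difference was 0.62 within session 2 and -0.53 within session 3, which average to 0.04. For S100b in the stria the within-session values were 0.20 and -0.33, whereas Cnp was negative in both sessions in each region, from -0.05 to -0.55. The F test of whether hypoxia acted differently by region called 0 members and 0% of all probe sets, with 66 at an unadjusted p below 0.05.

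**Figure D4:**
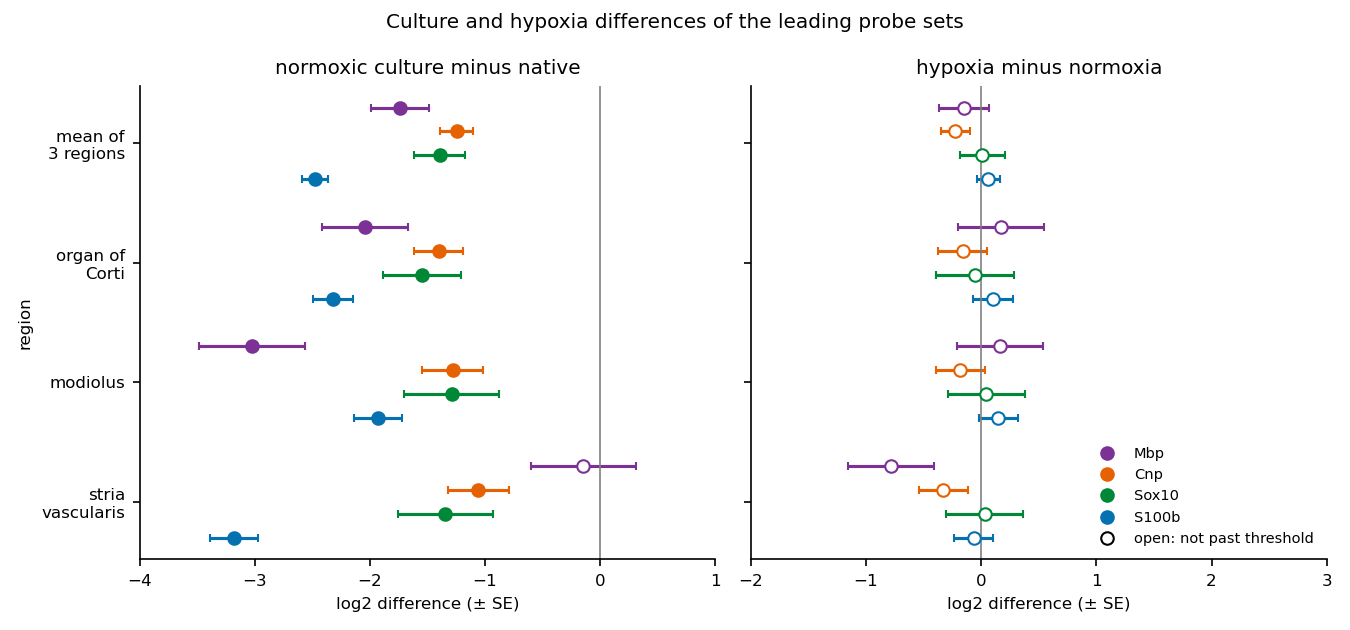
Log2 difference (± SE) of normoxic culture minus native (left) and of hypoxia minus normoxia (right) for the leading probe sets, as the mean of the regions and in each region; filled symbols passed. All culture values but that of Mbp in the stria vascularis lie at -1.06 or below, and every hypoxia symbol is open.

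Across the 9 group means on the log2 scale the members fell into patterns that only partly matched, given here as a description of points that share arrays and scaling. Sox10 and S100b correlated at r = 0.81, Mbp with Cnp and Mbp with Sox10 each at 0.77, Cnp with Sox10 at 0.72, Cnp with S100b at 0.45 and Mbp with S100b at 0.27. Within the 6 cultured groups Mbp with Sox10 gave 0.96 and Cnp with S100b gave -0.30. Each r of Mbp takes in the stria groups, where Mbp was at or near background and Sox10 was lowest among the cultured groups. Of 529 other genes compared over the 9 groups, those most like Mbp were Ntm, a neuronal cell adhesion gene (r = 0.96), the tachykinin precursor Tac1 (0.94) and the potassium channel gene Kcng1 (0.93). Ntm too lay below background in the stria, with means of 137 native, 175 normoxic and 63.6 hypoxic. Most like Cnp were the calcium channel gene Cacna1a, the leukocyte surface gene Cd48 and the growth factor gene Pdgfa (0.97 each). Most like Sox10 were the calcium pump gene Atp2a2 (0.97), the potassium channel gene Kcnh2 (0.96) and the adrenergic receptor gene Adra2b (0.96), and most like S100b were Bad, Smad2 and Pja2 (0.95 each).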

How the data were processed

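Total RNA from cochlear explants and tissue was hybridised to Affymetrix Rat Neurobiology U34 arrays. The authors deposited 1 intensity per probe set on a linear scale (1322 probe sets, the first column naming the probe set), and the 2% trimmed mean is 2500 on every array, so that each was scaled to one target. The software and version of that summary are not given in the sources used here. Of the scanner records only chip type and scan date were used, and the arrays scanned in the same calendar month were taken as a scan session. Labels do not say that the pools of a group were dissected separately, so p-values measure the spread between arrays, which may be technical. The number of arrays limits precision.

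Tests left out 59 controls. Of the 1263 others, 1137 had 1 platform symbol, 8 several and 118 none, and 1132 matched a current gene table by gene number. Values were used as log2(signal + 16). limma 3.58.1 (R 4.3.3, statmod 1.5.0) fitted 1 mean per group with 7 residual degrees of freedom, empirical Bayes moderation with a variance trend, two-sided tests and Benjamini-Hochberg adjustment over all probe sets of a contrast at 0.05. Single-array groups were assumed to vary like the others. Folds against dim groups raise a group with no array above background to its background percentile. A group with any array above background is left as measured. The members, the 8 lists (myelin sheath, Schwann cell regulators, immature or reactive glia, neurons, hair and supporting cells, stria and melanocytes, macrophages, fibroblasts and vessels) and the tests were chosen with earlier results of these data known. All member probe sets were named, each gene led by its brightest, beside up to 4 passing genes per list and averaged or cultured-region contrast, and the 3 genes most alike. Vim and Kcnj10 each stand in 2 lists. In simulations that changed 200 of 1263 probe sets, the averaged culture contrast recovered 52.8% of 2-fold and 94.4% of 4-fold changes, and 4.29% of its calls were false. The simulated arrays had independent noise and no session effect. These rates therefore do not carry over to the measured culture calls, where culture and scan session coincide. Arrays of a group correlated at 0.92 to 0.96 across probe sets. Alternatives were other pseudocounts, scalings, a dim filter, no variance trend, array weights, session or replicate as a block, fewer arrays and leaving out each array. Figures were drawn with matplotlib 3.10.9 (Python 3.11.15).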

Additional observations from a re-analysis of the deposited data

How the results depend on the processing

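The falls of all 4 genes in the averaged culture contrast, the higher Mbp and Cnp of cultured modiolus and the absence of hypoxia calls kept direction and side of the threshold under every alternative that gave a value. The F test of whether culture differed by region is void for Mbp, whose stria signals were at background, whichever side of the threshold it fell. It passed with the dim filter (F = 10.26, adjusted p = 0.045), pseudocount 64 (11.53), quantile normalization (12.07), session as a random block (11.23) or session as a term (11.25), and ranged from 7.40 to 16.5 when single arrays were left out. That of the leading S100b probe set passed with median centring (12.3), the replicate block (11.62), session as a random block (10.93) and as a term (12.84).

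S100b in cultured modiolus minus organ of Corti was -0.39 without passing with no variance trend (adjusted p = 0.125) or with only the arrays compared (0.0586). It ranged from -0.45 to -0.33 without single arrays. The dim S100b probe set gave a fitted 0.57 ± 0.50 there and 0.0257 in cultured organ of Corti minus stria. It was above background on 0 cultured arrays, so that neither value is a measured difference. For native modiolus it gave 0.30 minus organ of Corti and 1.34 minus stria, where native stria was not above background. The leading S100b probe set in cultured organ of Corti minus stria did not pass at 0.23 with centring or at 0.55 with no variance trend. Sox10 in cultured modiolus minus stria did not pass at 0.44 with centring or 0.71 with quantile normalization and ranged from 0.69 to 1.06 without single arrays; in organ of Corti minus stria it did not pass at 0.45 with centring, 0.60 with quantile normalization, or 0.77 with no variance trend and with only the arrays compared, and ranged from 0.58 to 0.96. Single-region calls lost with no variance trend were Cnp (-1.06, adjusted p = 0.0711) and Sox10 (-1.34, 0.12) for culture in the stria, Sox10 for culture in the modiolus (-1.29, 0.104), and S100b in native modiolus against organ of Corti (-0.80, 0.215) and stria (-1.19, 0.0624). Sox10 for culture in the stria was also lost with centring (-1.39, 0.0768), quantile normalization (-1.14, 0.109) and pseudocount 1 (-1.35, 0.0537), and in the modiolus with centring (-1.25, 0.0906) and array weights (-1.29, 0.0518). The dim S100b probe set lost its averaged culture call (-1.33) with array weights (0.0532), only the arrays compared (0.0646) and session as a random block (0.0894). S100b in native modiolus against organ of Corti was also lost with quantile normalization (-0.77, 0.0672). Those lost with only the arrays compared were Cnp (0.113) and Sox10 (0.15) for culture in the stria and Mbp in native modiolus against organ of Corti (2.24, 0.0697). The causes were not tested.

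Same-numbered cultured arrays of different groups had residuals correlating at -0.0058 to 0.2843 over 15 pairs, 10 of them above 0.1. In the cultures the repeat number coincides with the scan session. The main fit did not use the numbers as pairs, and the replicate block and scan session were fitted as alternatives. Among members the replicate block ended no call, and its added one is the S100b F test above. Counts over all probe sets moved by more than 1.5 times for culture differing by region (42, from 14 with no variance trend to 88 with session as a term, 68 with it as a random block, 75 with the replicate block, 26 without the second normoxic organ of Corti array), culture in the organ of Corti (218, and 121 or 136 without its first native or second normoxic array), culture in the stria (173, and 85 with only the arrays compared or 109 without its first normoxic array), native modiolus against organ of Corti (69, and 39 with no variance trend, 107 with session as a term, 27 or 32 without either native organ of Corti array) and native organ of Corti against stria (90, and 54 or 55 without either). Hypoxia counts of 2 in the mean, 1 in the modiolus and 3 in the stria moved between 0 and 6. Native modiolus against native stria could not be fitted with only the 2 arrays compared. With 1 array in 2 native groups, and Mbp in the stria at background, neither the spread of those groups nor a change of Mbp in the stria could be measured.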
